A study of Bos taurus with 46 samples.

Results

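The genes described here are the nuclear-encoded subunits of the respiratory chain and of ATP synthase, read from circulating leukocytes of pregnant heifers. They were chosen by symbol alone, namely the genes whose symbol begins with NDUFA, NDUFB, NDUFC, NDUFS, NDUFV, UQCR, COX4, COX5, COX6, COX7, COX8 or ATP5, without the assembly factors beginning NDUFAF. The rule gave 82 of the 30675 genes in the count table, with 37 genes of complex I, 8 of complex III, 18 of complex IV and 19 of complex V. All 82 had at least 1 read, and 77 had 10 reads or more in every library.

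Leukocyte RNA of 23 Angus crossbred heifers was sequenced on D55 and again on D105 of gestation, giving 46 libraries. The AI group (n = 8) had conceived by artificial insemination and served as the control. In the IVP groups, embryos made in vitro from oocytes of slaughterhouse ovaries and the semen of a single Brahman bull had been transferred, and the fetuses were later classed by weight against the AI fetuses as IVP-Normal (n = 6) or IVP-LOS (n = 9). LOS stands for large offspring syndrome, a fetal overgrowth of cattle known mainly from assisted reproduction that also arises without it. The study also set heifers 604 and 664, which carried the heaviest IVP-LOS fetuses, against the other 21. The libraries of this pair had also separated from the rest when the study clustered the same data, so the comparison is not independent of the libraries. Heifer 604 carried twins and heifer 664 a singleton. None of the genes that the study named as called by both of its packages in this comparison is among those described here. On D105 the study's edgeR run called far fewer genes than its DESeq2 run, which limits that list. Its edgeR counts were also adjusted for unwanted variation, a step not used here. White blood cells were taken from the tail vein after lysis of the red cells, so each library holds a mixture of cell types.

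Complex I takes electrons from NADH and complex III passes them from ubiquinol to cytochrome c. Complex IV hands them to oxygen, and complex V, the ATP synthase, uses the resulting proton gradient to make ATP. Complexes I, III and IV join a catalytic core to accessory subunits, most of them small, that stabilise it. The 13 subunits encoded by mitochondrial DNA, which lie outside the rule, were not analysed here. Circulating neutrophils live mostly on glycolysis and hold few mitochondria, whereas lymphocytes, monocytes and platelets respire.

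Between 18692653 and 24502012 reads per library fell on genes, and the 82 genes together took 0.427% to 0.623% of them. The lowest totals were the D105 libraries of heifers 604 (18692653 reads) and 664 (19641136 reads). These libraries also stood apart in the share of reads that fell on no gene, with 38.0% in 604 and 36.1% in 664, against 23.9% to 30.5% in the other 21 on that day. In the labels 17 libraries, all those of AI and IVP-LOS on D105, carry the set name BACKUP and the other 29 the set name New. Day and set thus cannot be told apart in these groups. A figure legend of the study places the D55 blood in winter and the D105 blood in summer. On that account day and season cannot be told apart in any group. In a mixture of cells, fewer cells of a type and less RNA per cell cannot be told apart either.

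Expression is given as CPM, reads scaled to a common library size after TMM adjustment, and levels are compared for the same gene between libraries only. For each library a score was formed as the mean over the 82 genes of log2(CPM + 1). The score is a description and was not tested. Genes were tested in edgeR with the quasi-likelihood F-test, fitted on all genes, and a gene was called at a Benjamini-Hochberg FDR of at most 0.05.

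The respiratory chain score hardly separated the treatment groups, and its spread lay between heifers and between the days of single heifers. On D55 it was 5.21 ± 0.101 (SD, n = 8) in AI, 5.21 ± 0.165 (SD, n = 6) in IVP-Normal and 5.20 ± 0.101 (SD, n = 9) in IVP-LOS. On D105 the means were 5.14 ± 0.0872 (SD, n = 8), 5.22 ± 0.129 (SD, n = 6) and 5.23 ± 0.197 (SD, n = 9), in the same order. The groups overlapped widely on both days, and the larger SD of IVP-LOS on D105 came with the values of heifers 604 and 664. Between D55 and D105 the score was higher in 12 heifers and lower in 11. The mean change from D55 to D105 was -0.07 ± 0.166 (SD, n = 8) in AI, 0.01 ± 0.236 (SD, n = 6) in IVP-Normal and 0.04 ± 0.226 (SD, n = 9) in IVP-LOS, each smaller than its SD.

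**Figure D1:**
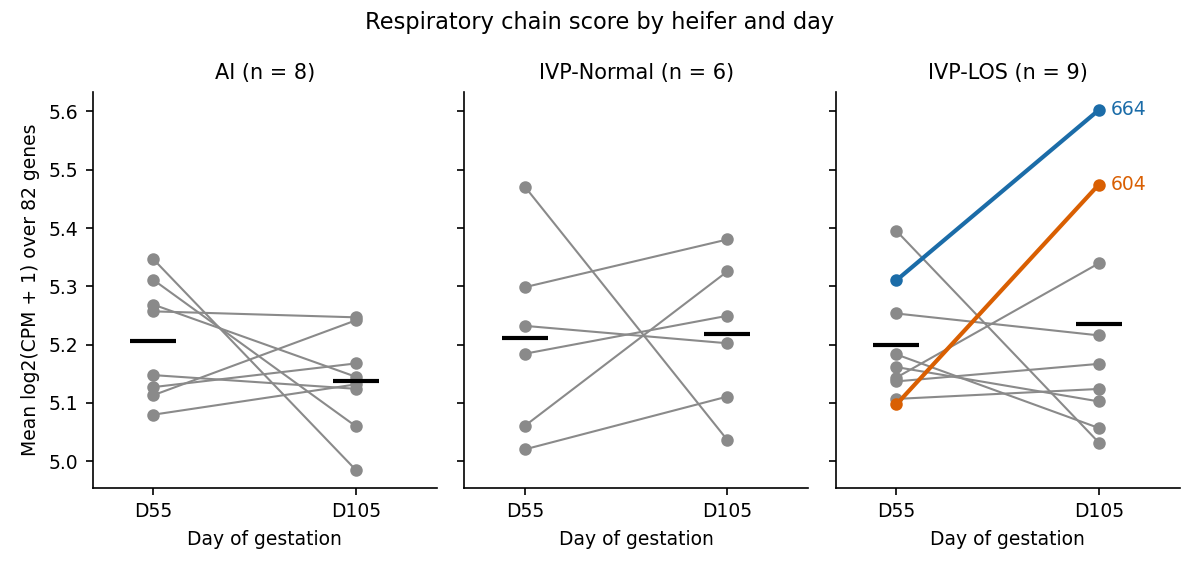
Respiratory chain score, the mean log2(CPM + 1) over 82 genes, on the y axis for each heifer on D55 and D105, with a panel per treatment group; lines join the libraries of a heifer and black bars are group means. Heifer 604 (orange) went from 5.10 to 5.47 and heifer 664 (blue) from 5.31 to 5.60, the highest D105 values, while the group means stayed between 5.14 and 5.23.

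The largest shifts between days ran in both directions. Heifer 604 went from 5.10 on D55, rank 20 of 23, to 5.47 on D105, and heifer 664 went from 5.31 to 5.60. These were the highest D105 scores of the 23 heifers, and the other 21 ranged from 4.99 to 5.38 with a median of 5.14. In the opposite direction, heifer 560 (IVP-Normal) went from 5.47, the highest D55 score, to 5.04, heifer 656 (IVP-LOS) from 5.40 to 5.03, and heifer 606 (AI) from 5.35 to 4.99. In these last 3 heifers between 3 and 10 of the 82 genes were higher on D105 than on D55, against 64 in 604 and 69 in 664. The score is the mean of these same genes and these 5 heifers shifted most, so the counts follow in part from that choice. The share over all genes in the same heifers is not given here.

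The first question was whether these genes differed between the 2 days within a treatment group. In AI heifers 2 of the 79 genes tested rose on D105 and none was called lower, while 9.95% of all genes tested were called in either direction and 7.21% were called higher. NDUFV3, a small accessory subunit of the NADH-binding module of complex I, ranged from 54.7 to 67.0 CPM on D55 (median 61.8) and from 61.2 to 94.2 CPM on D105 (median 73.3). It was higher on D105 in 7 of 8 AI heifers, although the ranges overlapped, and its log2 fold change was 0.29 ± 0.0810 (SE; edgeR quasi-likelihood FDR 0.0291). COX7A1, the heart and skeletal muscle isoform of a complex IV subunit, ranged from 1.60 to 3.15 CPM on D55 (median 2.29) and from 2.33 to 4.37 CPM on D105 (median 3.42). It too was higher in 7 of 8 AI heifers with overlapping ranges, with a log2 fold change of 0.55 ± 0.162 (SE; FDR 0.0382).

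With heifer as a block the same 2 genes were called and ATP5IF1 was added as lower on D105, with a log2 fold change of -0.27 ± 0.0840 (SE; edgeR quasi-likelihood FDR 0.0445; 0.134 without the block). ATP5IF1 encodes the inhibitor that keeps ATP synthase from hydrolysing ATP when the proton gradient collapses. Its AI range was 59.2 to 95.9 CPM on D55 and 42.4 to 70.8 CPM on D105, with 6 of 8 heifers lower on the later day. The median log2 fold change of the 79 genes in AI was -0.07, against -0.02 over all genes, and 18 of them had a value above 0. Neutrophil markers moved with this comparison. Of the 11 tested, 10 were called higher on D105 in AI, and their summed level went from 1101 to 2209 CPM on D55 up to 2542 to 6181 CPM on D105, with no overlap. Their part in the result was not tested.

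In IVP-Normal heifers 0 of 79 genes were called between the days by edgeR's quasi-likelihood test (2.45% of all genes tested were called, and 2.27% were called higher), with 1 below an unadjusted p of 0.05. In IVP-LOS heifers the count was also 0 of 79 (0.251% of all genes, and 0.198% higher), with 7 below an unadjusted p of 0.05. DESeq2 and edgeR's likelihood ratio test called 0 in both groups as well. NDUFV3 was higher on D105 in 5 of 6 IVP-Normal heifers and in 6 of 9 IVP-LOS heifers, and COX7A1 in 3 of 6 and 7 of 9. In IVP-LOS, 56 of 79 log2 fold changes were above 0 (median 0.07), but without heifers 604 and 664 only 24 of 79 were (median -0.05).

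Whether the change between days differed between treatment groups was tested as an interaction. By edgeR's quasi-likelihood test 0 of 79 genes were called for IVP-Normal minus AI, 0 of 79 for IVP-LOS minus AI and 0 of 79 for IVP-LOS minus IVP-Normal, and 0% of all genes tested were called in each. Below an unadjusted p of 0.05 there were 1, 4 and 0 members, and DESeq2 called 0 in all 3.

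The treatment groups were then compared on each day. On D55 edgeR's quasi-likelihood test called 0 of 79 genes for IVP-Normal against AI, 0 for IVP-LOS against AI and 0 for IVP-LOS against IVP-Normal, and on D105 it called 0 of 79, 0 of 78 and 0 of 79 in the same order. In each of these 6 comparisons 0% of all genes tested were called, and DESeq2 and the likelihood ratio test of edgeR also called 0 members. At an unadjusted p under 0.05 there were 0, 9 and 0 members on D55 and 0, 2 and 1 on D105. The D55 comparison of IVP-LOS with AI held the smallest of these values, for NDUFB2, an accessory subunit of the membrane arm of complex I (log2 fold change 0.24 ± 0.0686 SE; FDR 0.636), and NDUFA10, an accessory subunit of the same complex (-0.25 ± 0.0778 SE; FDR 0.636).

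On D105 most members lay slightly higher in the IVP groups than in AI without passing the test. The log2 fold change was above 0 in 71 of 79 genes for IVP-Normal (median 0.10) and in 74 of 78 for IVP-LOS (median 0.12), while over all genes tested the medians were 0.01 and 0.03. Both comparisons use the same AI libraries. Without heifers 604 and 664 the IVP-LOS values were above 0 in 55 of 79 genes with a median of 0.02. The D105 IVP-Normal libraries are of the set New and the AI libraries of the set BACKUP, so group and set cannot be told apart in that comparison.

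**Figure D2:**
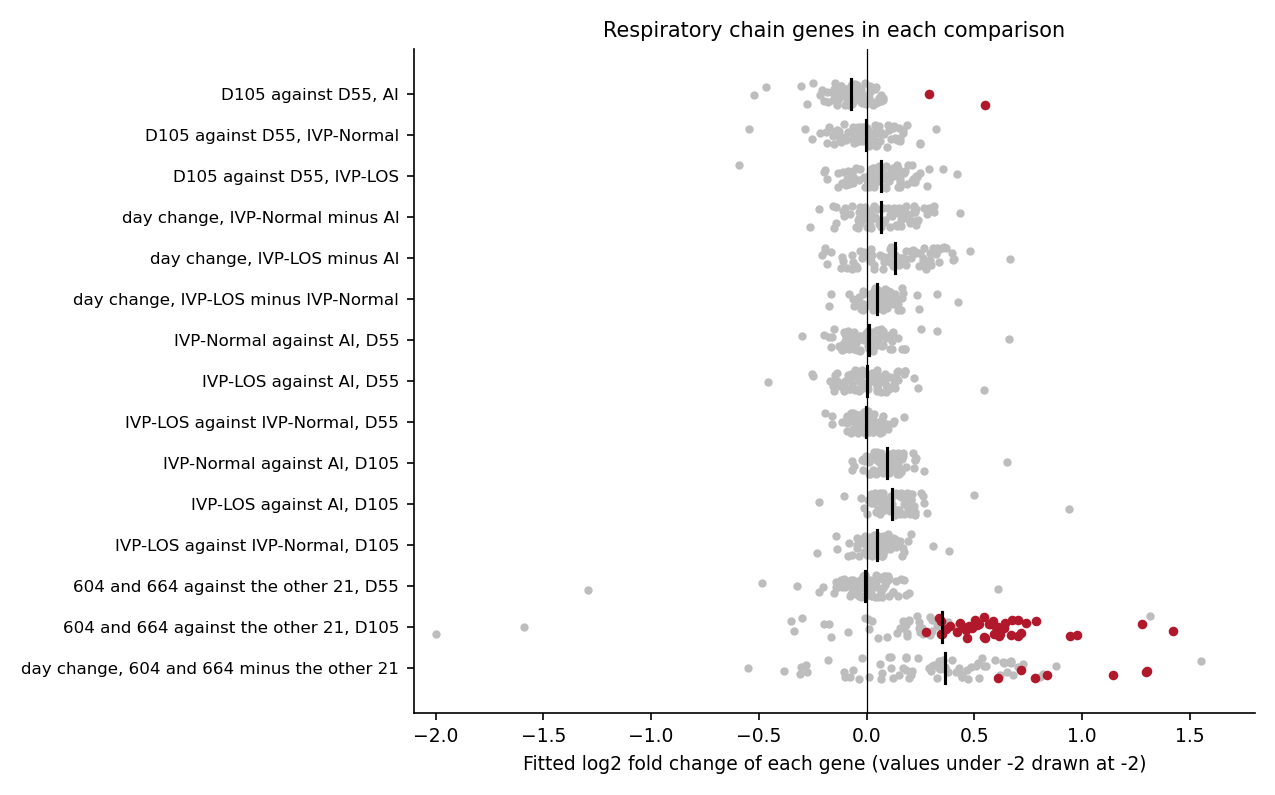
Fitted log2 fold changes of the members tested (x axis) in each comparison (y axis), with a point per gene, called genes in red and medians as black bars; COX7B2, fitted at -5.00 on D105 in the pair with 0 reads in both heifers, is drawn at -2. Called genes appear in AI between the days (2 genes), in heifers 604 and 664 on D105 (41 genes) and in their change between days against that of the other 21 (7 genes).

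Heifers 604 and 664 carried by far the most members called. On D105, 41 of the 80 genes tested were higher in the pair than in the other 21 heifers and 0 were lower. Over all 16841 genes tested, 21.1% were called and 11.6% were called higher. The log2 fold changes of the 41 genes ran from 0.28 to 1.42 (median 0.57), or 1.21-fold to 2.68-fold. Over the 80 genes the median was 0.35 and 70 were above 0, against a median of -0.02 over all genes, of which 48.4% were above 0. For 35 of the 80 genes both heifers lay above the whole range of the other 21, and for 0 both lay below, while 7.97% of all genes tested had both above and 6.21% both below. Of the 41 genes called, 33 had both heifers above that range.

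On D55 these heifers did not stand out. By edgeR's quasi-likelihood test 0 of 79 genes were called, against 0.0179% of all genes, with 1 below an unadjusted p of 0.05, and DESeq2 called 0. For 0 of 79 genes did both heifers lie above the other 21 and for 0 below, against 0.341% and 0.502% of all genes. The median log2 fold change was -0.01.

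**Figure D3:**
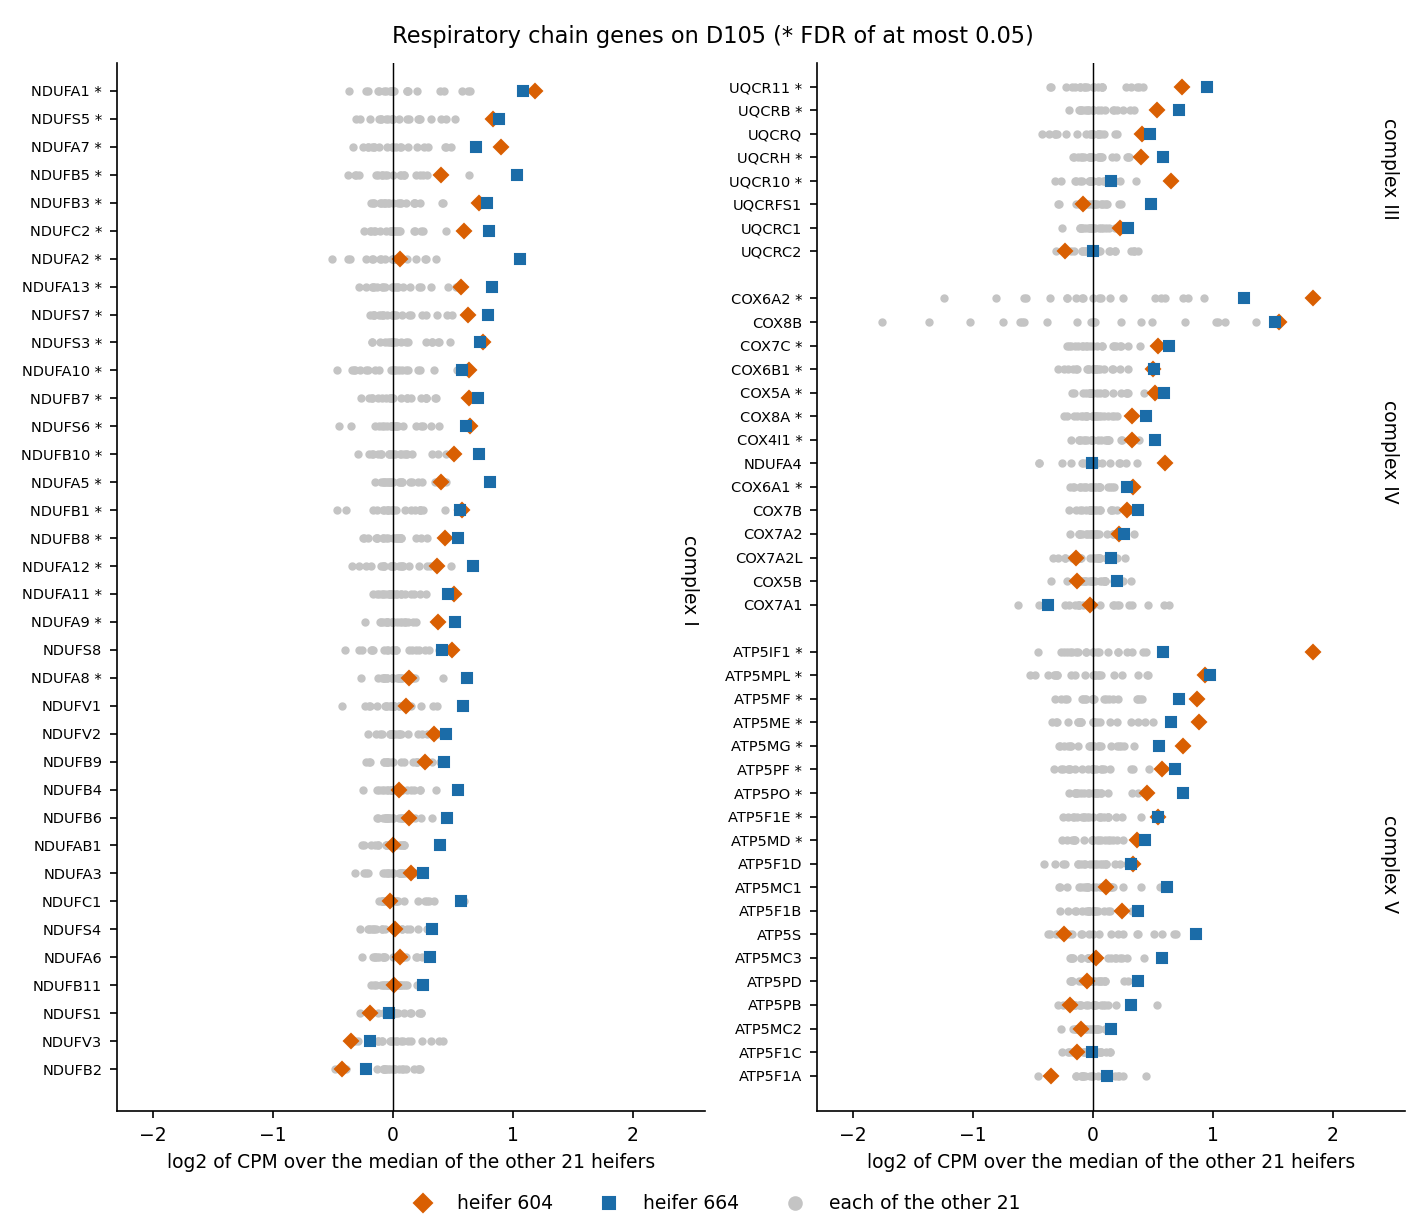
D105 level of 77 genes as log2 of CPM over the median of the other 21 heifers (x axis), by gene (y axis) and complex, with heifer 604 in orange, heifer 664 in blue and each of the other 21 in grey; a star marks genes called in the pair. COX6B2 and COX7B2 are left out for a median under 1 CPM, and 1 further gene that was not called is not drawn. In 35 genes both coloured points lie to the right of every grey point, and in 27 others only heifer 664 does.

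All 4 complexes took part. In complex I 21 of 37 genes were called higher in the pair on D105 (median log2 fold change over all 37 of 0.43). The counts were 4 of 8 in complex III (0.39), 7 of 16 tested in complex IV (0.29) and 9 of 19 in complex V (0.30). By role, 37 of 60 accessory subunits were called higher, with a median of 0.42. Of 12 core subunits of complexes I, III and V, 2 were called higher, with a median of 0.23. The catalytic core of complex IV is encoded by mitochondrial DNA. The core of complex III was taken as UQCRC1, UQCRC2 and UQCRFS1, without cytochrome c1 (CYC1), which lies outside the rule. That of complex V was taken as ATP5F1A and ATP5F1B. Rotor and stalk subunits of complex V, such as ATP5F1C, ATP5MC1 and ATP5PO, were counted as accessory. In complexes III and V the roles thus do not separate catalytic from stabilising subunits. These counts stand against 11.6% of all genes tested that were called higher in this comparison. The difference between the roles was not tested. As scores, the accessory subunits stood at 5.76 in 604 and 5.91 in 664 against 5.23 to 5.64 in the other 21 on D105. The core subunits stood at 6.58 and 6.79 against 6.28 to 6.76, so only 664 was above the others there.

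Complex I gave 21 of the 41 calls, all but NDUFS3 and NDUFS7 in accessory subunits. NDUFB3, a small subunit of the membrane arm, stood at 38.3 CPM in 604 and 40.1 CPM in 664, and the other 21 ranged from 20.5 to 31.1 CPM (median 23.2). Its log2 fold change was 0.67 ± 0.123 (SE; edgeR quasi-likelihood FDR 0.00139). NDUFC2, also in the membrane arm, stood at 43.3 and 49.96 CPM against 24.3 to 38.9 CPM (median 28.7), with a log2 fold change of 0.64 ± 0.122 (SE; FDR 0.00193). Neither heifer overlapped the others in these genes. On D55 the pair had 23.1 and 26.7 CPM of NDUFB3 and 28.7 and 32.6 CPM of NDUFC2, all within the range of the other 21.

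NDUFA1, a single-pass membrane subunit needed for complex I assembly, was counted at a low level but showed the widest gap among them. It stood at 11.3 CPM in 604 and 10.5 CPM in 664 on D105, against 3.86 to 7.76 CPM in the others (log2 fold change 0.97 ± 0.197 SE; FDR 0.00294). NDUFS5, a subunit on the intermembrane face, stood at 107.7 and 111.5 CPM against 48.9 to 86.4 CPM (0.74 ± 0.153 SE; FDR 0.00329). Among the accessory subunits of complex I, NDUFV3 and NDUFB2 had fitted values below 0, with -0.34 (FDR 0.105) and -0.35 (FDR 0.0678). NDUFB2 had 21.9 CPM in 604 and 25.1 CPM in 664 against a median of 29.3 CPM, and among the BACKUP libraries alone it was called lower (log2 fold change -0.38; FDR 0.0148).

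Of the 7 core subunits of complex I, NDUFS3 and NDUFS7 were higher in the pair, and the others did not pass the test. NDUFS3 stood at 58.7 and 57.6 CPM against 30.9 to 48.5 CPM (log2 fold change 0.60 ± 0.134 SE; FDR 0.00493), and NDUFS7, which holds the last iron-sulfur cluster before ubiquinone, at 65.3 and 73.1 CPM against 37.0 to 59.4 CPM (0.61 ± 0.144 SE; FDR 0.00664). NDUFS8, another iron-sulfur subunit, had a fitted value of 0.38 (FDR 0.0777). The NADH-oxidising subunits NDUFV1 and NDUFV2 had 0.32 (FDR 0.0904) and 0.30 (FDR 0.0652). The largest core subunit of the module, NDUFS1, had -0.16 (FDR 0.245).

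In complex III the accessory subunits UQCR11, UQCRB, UQCRH and UQCR10 were higher in the pair. UQCR11 stood at 48.8 CPM in 604 and 56.3 CPM in 664, and the others ranged from 22.7 to 38.9 CPM (median 29.1). UQCRB, which sits at the ubiquinone-binding site, stood at 49.1 and 55.9 CPM against 29.6 to 43.2 CPM. Both heifers were above the others in these genes, with log2 fold changes of 0.78 ± 0.153 (SE; edgeR quasi-likelihood FDR 0.00232) and 0.55 ± 0.109 (SE; FDR 0.00275). None of the core subunits tested was called, with 0.20 (FDR 0.150) for UQCRC1, -0.20 (FDR 0.338) for UQCRC2 and 0.20 (FDR 0.221) for the Rieske iron-sulfur protein UQCRFS1. UQCR10 was 55.7 CPM in 604 but 39.2 CPM in 664, below 3 of the other heifers, and its log2 fold change without 604 was 0.10 (FDR 0.717).

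Complex IV offers pairs of isoforms, and the widely expressed and the tissue-restricted forms can be set side by side. COX4I1, the widely expressed form of a regulatory subunit, stood at 291 and 333 CPM against 205 to 303 CPM (log2 fold change 0.34 ± 0.108 SE; FDR 0.0282), while its hypoxia-linked partner COX4I2 had at most 1 read in any library. COX5A was higher in the pair by 0.45 ± 0.115 (SE; FDR 0.0107) and COX5B did not pass the test (-0.01; FDR 0.959). COX6A1 stood at 122.4 and 118.2 CPM against 85.1 to 110 CPM (0.28 ± 0.0819 SE; FDR 0.0216).

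Its heart and muscle isoform COX6A2 showed the largest log2 fold change of the 41 genes. It stood at 14.5 CPM in 604 and 9.73 CPM in 664 on D105, and the other 21 ranged from 1.72 to 7.74 CPM (median 4.07). On D55 the pair had 4.45 and 5.66 CPM, inside the range of 2.47 to 9.91 CPM. The log2 fold change on D105 was 1.42 ± 0.334 (SE; edgeR quasi-likelihood FDR 0.00664), but without 604 it was 1.11 with an FDR of 0.147. COX8B, the muscle form beside the widely expressed COX8A, had 3.02 and 2.95 CPM against 0.306 to 2.65 CPM (1.31 ± 0.488 SE; FDR 0.0560). COX8A itself stood at 173 and 188 CPM against at most 159 CPM in the others (0.35 ± 0.0888 SE; FDR 0.00966).

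COX7A1, which had risen between days in AI, was not called in the pair (-0.30; FDR 0.391), and neither were its widely expressed partners COX7A2 (0.17; FDR 0.247) and COX7A2L, a factor of respiratory supercomplexes (0.00; FDR 0.983). COX6B1 was higher in the pair by 0.47 ± 0.107 (SE; FDR 0.00535). COX6B2, a testis form, had 3 to 47 reads per library with a fitted value of -1.59 (FDR 0.118). COX7B had 0.26 (FDR 0.0686). The testis form COX7B2 had 0 reads in both D105 libraries of the pair and 0 to 19 in the others, too few for a fold change. NDUFA4, now counted to complex IV, stood at 94.3 CPM in 604 and 61.7 CPM in 664 (0.29; FDR 0.155), and NDUFA4L2, its hypoxia-induced paralogue, had at most 3 reads in any library. COX4I2 and NDUFA4L2 were the members tested in no comparison.

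In complex V the membrane subunits ATP5MPL, ATP5MF, ATP5ME and ATP5MG were higher in the pair. So were the stalk subunits ATP5PO and ATP5PF, as well as ATP5F1E and ATP5MD. ATP5MPL stood at 128.4 and 131.4 CPM on D105, and the others ranged from 46.5 to 92.3 CPM (median 67.0). On D55 the pair had 49.8 and 59.5 CPM, within the range of the others. Its log2 fold change on D105 was 0.94 ± 0.186 (SE; edgeR quasi-likelihood FDR 0.00248). The catalytic pair ATP5F1A and ATP5F1B was not called, with -0.17 (FDR 0.416) and 0.26 (FDR 0.103). The 3 genes of the rotor ring subunit c, ATP5MC1, ATP5MC2 and ATP5MC3, which encode the same mature protein, had 0.30 (FDR 0.164), 0.01 (FDR 0.941) and 0.24 (FDR 0.199).

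The ATP synthase inhibitor ATP5IF1 had the smallest FDR of all members. It stood at 208 CPM in 604 and 87.4 CPM in 664 on D105, against 42.4 to 79.3 CPM (median 58.2) in the other 21. On D55 the pair had 79.9 and 61.6 CPM, inside the range of 47.6 to 103.3 CPM. The log2 fold change on D105 was 1.28 ± 0.189 (SE; edgeR quasi-likelihood FDR 0.000131), but it was 1.77 without 664 and 0.53 without 604 (FDR 0.148), so its size rested on heifer 604.

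**Figure D4:**
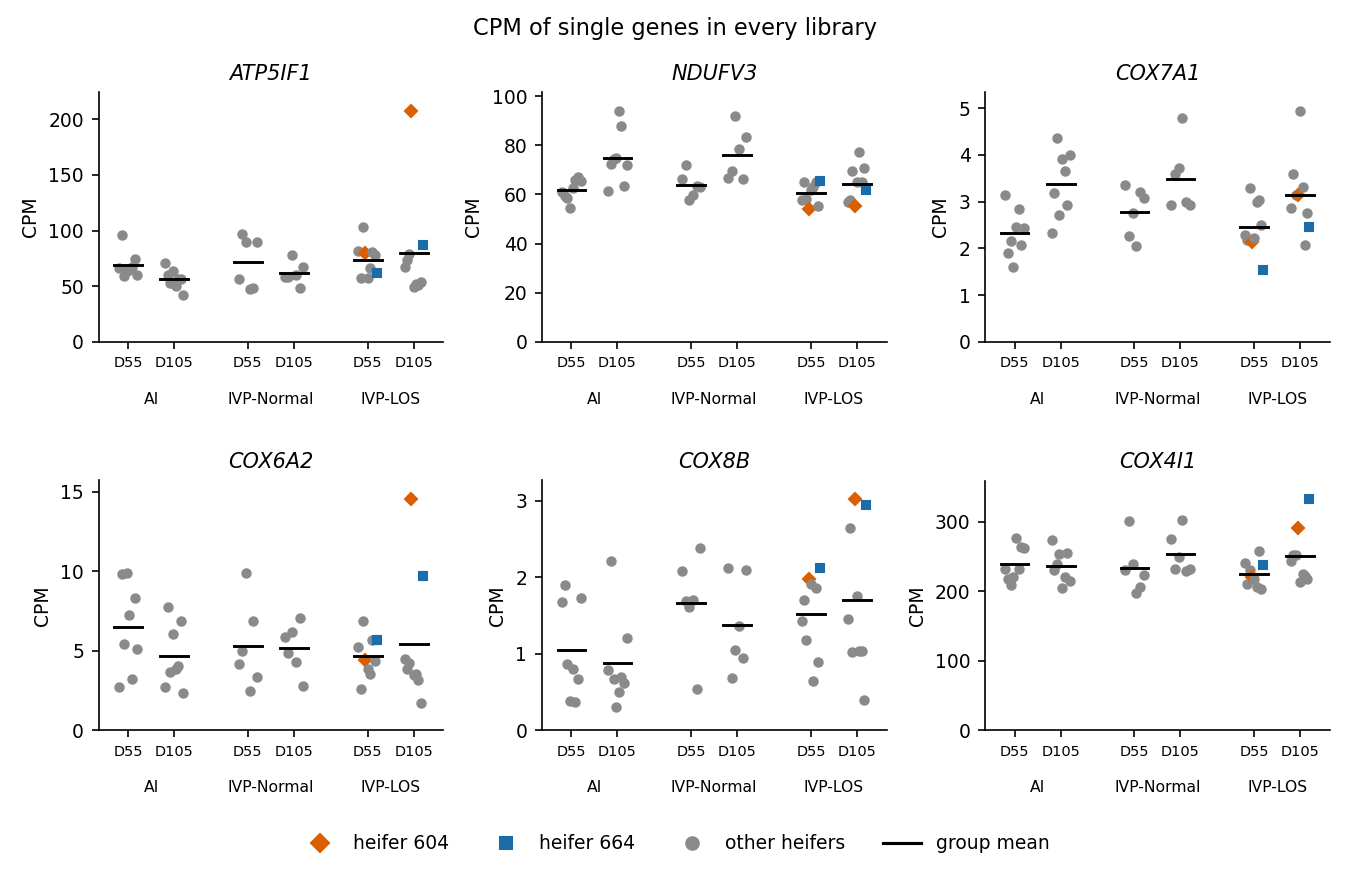
CPM (y axis, from 0) of 6 genes in each of the 46 libraries by treatment group and day, with heifer 604 as an orange diamond, heifer 664 as a blue square, other heifers in grey and group means as black bars. ATP5IF1 reaches 208 CPM and COX6A2 14.5 CPM in heifer 604 on D105, while NDUFV3 and COX7A1 differ between the days with overlapping ranges.

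Calls in the pair depended on having both heifers. Without 604, 13 of the 41 genes were called and without 664, 10 of them, and only NDUFB3 and ATP5MPL were called in both cases. The direction was less sensitive, since 71 of 80 log2 fold changes were above 0 without 604 and 58 of 80 without 664. Heifer 604 alone lay above the range of the other 21 in 3 genes (NDUFA4, NDUFS8 and UQCR10) and heifer 664 alone in 27. Among the BACKUP libraries alone all 41 genes were called again, and against the other 7 IVP-LOS heifers 27 of them were called.

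Whether the change of the pair between days differed from that of the other 21 heifers was tested as an interaction, chosen after the data had been seen. Of 80 genes, 7 had a larger increase in the pair and 0 a smaller one by edgeR's quasi-likelihood test, with 2.08% of all genes called and 1.47% called with a larger increase. The 7 genes were NDUFA1, NDUFB3 and NDUFS5 of complex I, COX6B1 of complex IV, and ATP5MPL, ATP5MF and ATP5IF1 of complex V. NDUFA1 had the smallest FDR, with a difference of 1.29 ± 0.267 (SE; FDR 0.00546) on the log2 scale, going from 4.04 to 11.3 CPM in 604 and from 4.81 to 10.5 CPM in 664. ATP5IF1 had 1.30 ± 0.326 (SE; FDR 0.0281) and ATP5MPL 1.14 ± 0.281 (SE; FDR 0.0245). With heifer as a block 24 genes were called with a larger increase and 1, NDUFB2, with a smaller one, whereas 0 were called without 604 and 0 without 664.

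Markers of some cell types also differed between the pair and the other heifers on D105. The marker counts here and in the next paragraph stand against 21.1% of all genes called and 11.6% called higher. Of 11 neutrophil markers tested, 9 were lower in the pair and 0 higher, and the summed level of the 12 in the table was 723 CPM in 604 and 668 CPM in 664, against 1255 to 15423 CPM (median 2866) in the others. Of 9 monocyte markers 6 were lower, with sums of 469 and 516 CPM against 865 to 6709 CPM. Among these markers only CAMP, a neutrophil granule gene, had 0 reads, in 604. Of 8 B cell markers 3 were higher, PAX5 and CD79A among them, with sums of 4298 and 5522 CPM against 1397 to 4874 CPM. Of 11 T cell markers 1 was lower (CD3D), with sums of 2061 and 1474 CPM against 1391 to 3004 CPM, and 0 of 6 NK cell markers were called at edgeR's quasi-likelihood FDR.

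Platelet and red cell genes differed between the 2 heifers. Of 8 platelet markers 6 were higher in the pair, with PF4, TUBB1 and ITGB3 first, and their sum was 6727 CPM in 604 but 931 CPM in 664, inside the range of 320 to 1750 CPM of the others. The erythroid sum was 606 CPM in 604 and 144 CPM in 664 against 14.7 to 154 CPM, with HBB called higher, while HBA, HBA1 and SLC4A1 had 0 reads in both. Eosinophil sums were 171 and 74.8 CPM against 40.2 to 402 CPM, with 1 of 4 markers lower. The part of these cell types, of the set and of the reads on no gene in the D105 result was not tested.

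**Figure D5:**
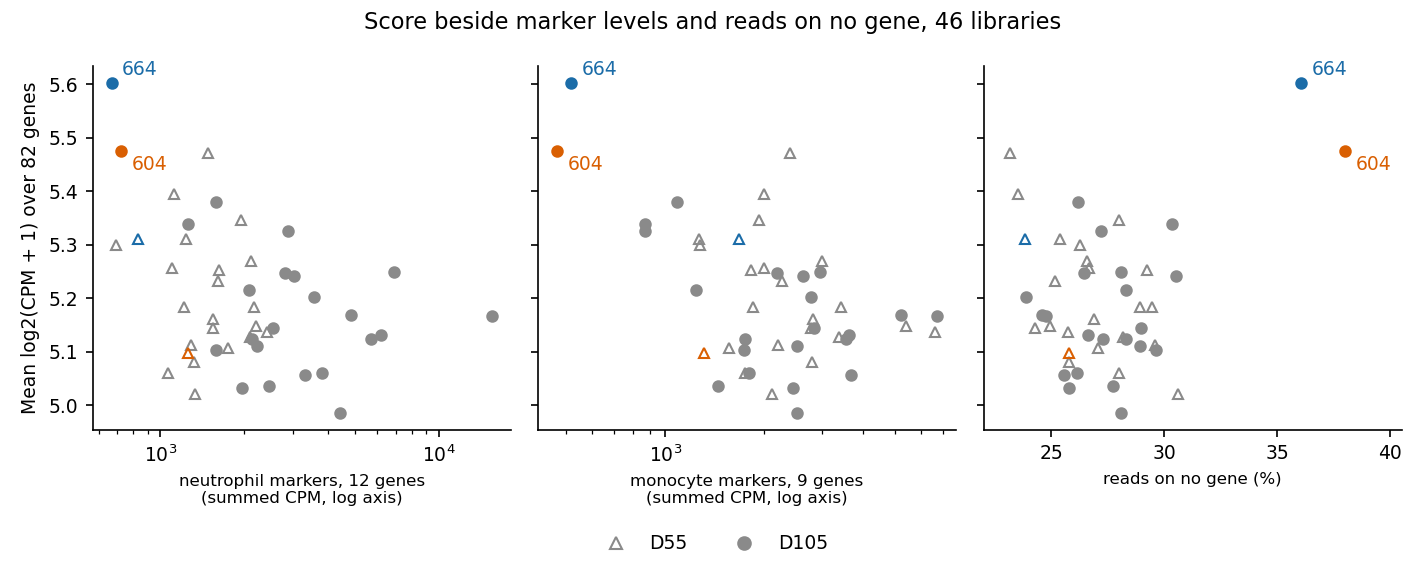
Respiratory chain score (y axis) of the 46 libraries against summed CPM of neutrophil and monocyte markers (x axes, log scale) and against the percentage of reads on no gene, with D55 as open triangles, D105 as filled circles, heifer 604 in orange and 664 in blue. The D105 libraries of 604 and 664 combine scores of 5.47 and 5.60 with the lowest monocyte sums (469 and 516 CPM) and the highest shares on no gene (38.0% and 36.1%).

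The next highest D105 scores belonged to heifers 519 (5.38), 557 (5.34) and 633 (5.33), whose monocyte sums of 1086, 865 and 865 CPM were the lowest among the other 21. Their shares of reads on no gene, between 26.2% and 30.3%, lay within the range of the rest. The next lowest D105 monocyte sums, 1242 CPM in heifer 602 and 1444 CPM in heifer 560, came with scores of rank 9 and rank 21. B cell sums on D105 were 4874 CPM in 519, 3839 CPM in 633 and 3281 CPM in 557. Heifers 533 and 616 had B cell sums of 3812 and 3539 CPM with scores of rank 7 and rank 16. The relation of the score to the monocyte or the B cell sum was not tested. On D55 the picture was mixed. The lowest monocyte sums, 1270 CPM in heifer 648 and 1272 CPM in heifer 519, came with scores of rank 4 and rank 6. Some other heifers did not line up in this way. Heifers 560 and 656, with the highest scores (5.47 and 5.40), had monocyte sums of 2393 and 1999 CPM, near the median of 2196 CPM of the 21 heifers, and heifer 604 had a sum of 1313 CPM, rank 21 of 23 from the highest, with a score of rank 20. Those scores of 560 and 656 came with the lowest shares on no gene of that day, 23.2% and 23.5%, whereas the pair on D105 had the highest.

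Related genes outside the rule were read from lists. The counts in the pair on D105 stand against 11.6% of all genes tested that were called higher. Here 2 of 4 complex II subunits were higher, SDHA by 0.36 ± 0.101 (SE; edgeR quasi-likelihood FDR 0.0162) and SDHD by 0.43 ± 0.124 (SE; FDR 0.0200). Of 9 electron carriers and their relatives ETFA and ETFB were higher, the subunits of the flavoprotein that feeds electrons from fatty acid oxidation. Cytochrome c1 (CYC1) had 0.35 (FDR 0.0626). Of 45 assembly factors tested 10 were higher and 0 lower, led by COA5 (0.86 ± 0.118 SE; FDR 6.03e-05), COX17, a copper chaperone of complex IV, and COA3. Their median was 0.27.

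The counts on the lists of regulators, tricarboxylic acid cycle and glycolysis were small, and they stand against 11.6% of all genes called higher and 21.1% called in either direction. Of 18 regulators of mitochondrial biogenesis 3 were higher in the pair, GABPB1, POLG2 and TFB2M, and SP1 was lower. Of 13 genes of the tricarboxylic acid cycle SUCLG1 was higher and DLST was lower, with a median of 0.05. Of 19 glycolysis genes GPI and PFKL were higher and HK2, HK3 and PKM were lower, with a median of -0.29. In AI heifers between the days, 0 complex II genes, 0 regulators and 0 tricarboxylic acid cycle genes were called by edgeR's quasi-likelihood test. Of 19 glycolysis genes, the glucose transporter SLC2A3 and ALDOA rose. Over all genes tested in that comparison, 9.95% were called and 7.21% were called higher.

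The spread between heifers was set against the spread between the days of a heifer. Over the 21 heifers other than 604 and 664, the SD of heifer means, after removal of group means, was divided by the SD of the difference between days after that difference was divided by 2, on the log2(CPM + 1) scale. A ratio of 1 is what no lasting difference between heifers would give on average. Of the 82 genes 37 (45.1%) were above 1, with a median of 0.926, and of all 16508 genes with enough reads 85.5% were, with a median of 1.46. The difference was not tested. The highest ratios were 3.21 for COX7B2, 2.42 for ATP5F1A, the catalytic alpha subunit of ATP synthase, and 2.29 for COX8B. COX7B2 was counted with 15 reads on D55 and 19 on D105 in heifer 633, whereas 0 reads were found in both libraries of heifers 546, 590, 602, 616, 637, 604 and 664. The lowest ratios were 0.491 for COX6B1, 0.508 for ATP5F1D and 0.607 for NDUFB4, 3 subunits whose spread between days exceeded that between heifers.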

How the data were processed

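After quality trimming, the authors used HISAT2 2.1.0 for alignment (bovine build ARS-UCD1.2) and HTSeq in union mode for counting. The values they deposited are raw read counts per gene, used here from the table on NCBI genes. The second count table, on Ensembl genes, was not used. HTSeq leaves out reads that match several places or overlap several genes, so genes with near-identical copies are uncertain. In the RefSeq gene table of another assembly, ARS-UCD2.0, 23 of the 82 genes overlap another gene, 9 of them among the 41 called in heifers 604 and 664 on D105. Those 9 include NDUFB3 (with HYCC2), NDUFS3 (KBTBD4) and COX4I1 (EMC8). Genes not called there that overlap another include NDUFB2 (BRAF) and COX8B (NBAS). Whether counting used strand is not given in the sources used here.

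Counts were analysed in R 4.3.3 with edgeR 4.0.16 (TMM, filterByExpr with a minimum count of 10, glmQLFit and glmQLFTest, Benjamini-Hochberg over all genes tested, FDR of at most 0.05). Each fit held only the groups compared, in 14 comparisons and 1 added later. DESeq2 1.42.0 and edgeR's likelihood ratio test were alternatives, and the test was checked on simulated counts. Standard errors are the absolute log2 fold change over the square root of F. The score used a pseudocount of 1. Low counts limit precision, and the count of a single library gives no estimate of variation beyond counting error.

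The members, lists and pair were chosen with earlier results of these data known. Named were all genes called where 8 or fewer were, otherwise the 8 of smallest FDR, isoform pairs, core subunits with COX4I1, COX5A and COX5B, the inhibitor, members never tested, the leading list genes, and the extremes of spread between heifers; other names were added after their values were seen. Naming by level per kilobase could not be applied without transcript lengths, and no sequences are given. The 2 libraries of a heifer come from the same animal. The deviations of same-heifer libraries from their group means correlated over 16508 genes with r from 0.280 to 0.828 (mean 0.530), against a mean of -0.0234 for different heifers. No library was a copy of another. Members of the mitochondrial genome were not analysed here, and the single values of a few genes are not reported here.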

Additional observations from a re-analysis of the deposited data

Results flagged for a closer look

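In groups of 6 to 9 heifers, the gap of the highest or lowest library to its neighbour was set against the range of the group for the score and 12 genes, 78 groups in all, where chance alone passes about 1 in 20 groups. ATP5IF1 was high in heifer 604 on D105 within IVP-LOS, at 208 CPM against 87.4 CPM in the next. It was also high in heifer 533 on D55 within AI, at 95.9 CPM against 74.5 CPM, and NDUFA1 was high in heifer 517 on D105 within AI, at 7.67 CPM against 5.72 CPM. The score passed in no group.

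The change between days differed between heifers 604 and 664 and the other 21 in 7 genes, tested as an interaction over all 46 libraries. This test was chosen after the data were seen.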

How the results depend on the processing

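Of the 12 comparisons between days and treatment groups, the 11 with 0 members called stayed at 0 under each alternative run, and so did the pair on D55. In AI between the days, upper-quartile normalization called 1 gene (COX7A1) and no expression filter called 1 (NDUFV3), against 2. For heifers 604 and 664 on D105, the 41 genes became 27 against the other 7 IVP-LOS heifers and 10 to 13 when 604 or 664 was left out. Here the lone heifer is assumed to vary like the others. The likelihood ratio test of edgeR called 40, DESeq2 45, upper-quartile normalization 43, no filter 38 and the fit without heifer 637, added later, 41. For the change of the pair between days, the 7 genes became 13 with the likelihood ratio test, 24 with DESeq2, and 0 when either heifer was left out (0 to 0). With heifer as a replicate block, pairing the libraries of an animal, the count was 25. In the other comparisons the block changed no call except that of ATP5IF1 in AI. Over the named genes and all settings, 80 values lost the call with the direction kept and none reversed. Scaling to library totals without TMM moved the D105 score difference of the pair from 0.37 to 0.29. The cause was not tested in these cases. The planned repeat on the Ensembl table was not run, since its identifiers could not be paired with symbols. With 2 heifers the spread of the pair is barely sampled, and restricted isoforms under 1 CPM are limited by depth.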

Other observations

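Genes of protein synthesis, a list chosen after the values were seen, were also higher in heifers 604 and 664 on D105. Of 80 cytosolic ribosomal protein genes 44 were called higher and 0 lower by edgeR's quasi-likelihood test, with a median log2 fold change of 0.49, and RPL12 stood at 1225 and 1624 CPM against 507 to 971 CPM in the other 21. Of 78 mitochondrial ribosomal protein genes 27 were called higher and 0 lower, with a median of 0.32. MRPL23 stood at 54.1 and 46.1 CPM against 19.9 to 34.8 CPM. Over all genes tested 11.6% were called higher. In AI between the days 0 of 79 cytosolic ribosomal protein genes were called, and of the mitochondrial ones MRPS15 was called higher and MRPL51 and MRPL18 lower. Over all genes tested there, 9.95% were called in either direction.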
